A study of Mus musculus with 24 samples.

Results

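A group of 10 genes of extracellular matrix turnover was followed in the left ventricle of mice with hypertension-induced left ventricular hypertrophy (LVH). They are the 4 tissue inhibitors of metalloproteinases (Timp1, Timp2, Timp3 and Timp4) and 6 matrix metalloproteinases (Mmp2, Mmp3, Mmp9, Mmp14, Mmp15 and Mmp23), chosen by symbol as 10 of the 14912 genes in the table. The hypertensive-LVH group held 12 male wild-type C57BL/6J mice that received angiotensin II (ANG II) at 1500 ng/kg/min from a subcutaneous osmotic pump for 7 days. The control group held 12 mice of the same strain and sex that received saline in the same way. ANG II is a hormone that constricts vessels and raises blood pressure. The ages of the mice were not given in the sources used here, and further samples that the study describes were not analysed here. Both groups are biological replicates per the study's methods, so each value is from 1 mouse.

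Matrix metalloproteinases (MMPs) are zinc-dependent enzymes that cut collagens, proteoglycans and other matrix proteins, and most are made as inactive precursors. Tissue inhibitors of metalloproteinases (TIMPs) bind the active site of these enzymes and block it. MMP14, which sits in the cell membrane, activates the MMP2 precursor in a complex that also needs TIMP2. In the pressure-loaded heart this system is known for its part in the turnover of collagen during fibrosis.

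Values are FPKM, fragment numbers scaled to the length of the transcript and to the mapped fragments of the sample. Plain FPKM can be set side by side between genes, but the deposited values were not plain, and the levels, shares and orders of genes are on the adjusted scale, on which the zero of a gene may have moved. Exact ties between samples divided each group into 4 sets (samples 1 to 3, 4 to 6, 7 to 9 and 10 to 12), with 218 to 546 tied genes in each pair of samples of 1 group within a set and at most 14 in any other pair. In each set the mean of the 6 samples of both groups was nearly the same as in the other sets, with a median coefficient of variation over the sets of 0.972% for 11456 genes with a mean of at least 1 FPKM, against 7.14% for the control samples alone. For Mmp2 these means of 6 samples were 67.0, 70.4, 67.5 and 68.6 FPKM. A high hypertensive-LVH level therefore came with a low control level in the same set, and a level cannot be compared between sets. The difference between the groups within a set is given on the adjusted scale. Between samples of different groups in the same set, at most 10 genes were tied. Whether the adjustment changed the difference between the groups was not tested. Of all values, 2741 (0.766%) were negative, which no FPKM can be. Control samples 4, 5 and 6 held 359, 245 and 426 of them, against 22 to 154 in each other sample. The controls of this set were thus those with the most values below 0. The sums of the values were 460715 to 515185 in the hypertensive-LVH group and 482319 to 567727 in the control group, and the sequencing depth is unknown. The atrial myosin light chain Myl7 was above 1000 FPKM in 2 samples, hypertensive-LVH sample 6 (1040) and control sample 2 (1443), and at most 220 FPKM in the others. The count of member calls and the Timp1 result are therefore also given without these samples. Leaving them out cannot undo an adjustment already made within their sets. Ventricular cardiomyocyte markers were abundant in all samples, with a summed level of 33087 to 49301 FPKM in the hypertensive-LVH group and 44297 to 57682 FPKM in the control group.

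Positions are from GENCODE vM21 (GRCm38), in which all 10 genes are protein-coding. Among the inhibitors, Timp1 lies at chrX:20870166-20874735 on the plus strand, Timp2 at chr11:118301069-118355740 on the minus strand, Timp3 at chr10:86300372-86349506 on the plus strand and Timp4 at chr6:115241892-115252205 on the minus strand. Timp2 overlaps Cep295nl on the same strand, with 0 pairs of overlapping exons. Timp1, Timp3 and Timp4 each lie inside a synapsin gene on the opposite strand, respectively Syn1, Syn3 and Syn2. The pairs of exons that overlap with the synapsin gene number 0 for Timp1, 1 for Timp3 and 6 for Timp4. These synapsin genes had mean levels of 0.493, 0.295 and 1.61 FPKM, and counting by strand is not stated in the sources used here. The secreted proteases are at chr8:92827291-92853420 (Mmp2), chr9:7445822-7455975 (Mmp3) and chr2:164940780-164955850 (Mmp9), all on the plus strand. The membrane-bound proteases are at chr14:54431612-54445364 (Mmp14, plus strand), chr8:95352268-95375080 (Mmp15, plus strand) and chr4:155650655-155653384 (Mmp23, minus strand).

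The 250 bases before the start of transcription are shown for 3 members whose levels are described most fully, an inhibitor, a secreted protease and a membrane-bound protease. They are RefSeq sequences of GRCm38.p6, on the plus strand and from 5′ to 3′, at chrX:20869916-20870165 for Timp1, chr9:7445572-7445821 for Mmp3 and chr14:54431348-54431597 for Mmp14. Capitals mark the motif matches named after them.
Timp1: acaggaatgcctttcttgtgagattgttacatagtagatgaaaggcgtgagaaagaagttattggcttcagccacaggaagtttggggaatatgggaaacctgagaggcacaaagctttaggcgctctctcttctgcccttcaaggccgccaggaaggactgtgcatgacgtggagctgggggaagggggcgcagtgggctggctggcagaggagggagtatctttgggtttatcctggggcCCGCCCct
Mmp3: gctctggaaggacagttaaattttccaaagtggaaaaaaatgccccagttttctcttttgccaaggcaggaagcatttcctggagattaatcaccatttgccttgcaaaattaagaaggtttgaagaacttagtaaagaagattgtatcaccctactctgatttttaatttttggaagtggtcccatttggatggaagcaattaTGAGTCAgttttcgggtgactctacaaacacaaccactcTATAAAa
Mmp14: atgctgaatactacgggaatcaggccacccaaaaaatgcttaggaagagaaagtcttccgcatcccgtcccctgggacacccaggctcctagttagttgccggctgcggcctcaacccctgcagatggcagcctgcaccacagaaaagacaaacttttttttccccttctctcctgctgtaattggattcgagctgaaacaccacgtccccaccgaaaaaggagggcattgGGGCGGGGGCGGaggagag
A set of 5 motifs was searched on both strands: AP-1 (TGANTCA), STAT (TTCNNNGAA), Sp1 (GGGCGG), Ets (CCGGAA) and the TATA box (TATAAA). In the Mmp3 window an AP-1 match lay 46 to 40 bases before the start and a TATA box match 7 to 2 bases before it. Of 32851 windows of this length, 6.75% held the AP-1 letters and 12.37% the TATA letters. The Timp1 window held 1 Sp1 match, read on the minus strand, 8 to 3 bases before the start. The Mmp14 window held 2 adjacent Sp1 matches, 19 to 14 and 13 to 8 bases before the start, which do not overlap. The Sp1 letters were in 32.74% of all windows, and Timp2, Timp3 and Mmp15 also held 1 match each. One of the 2 windows listed for Mmp23 held a STAT match, against 7.02% of all windows. No Ets match, which 12.03% of windows held, was in the windows of the 8 members that have an entry. Timp4 held none of the 5 motifs, and Mmp2 and Mmp9 have no entry. A match describes letters and is not a binding site.

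The group comparison asks which inhibitors and proteases differ at the mRNA level after ANG II infusion. Timp1, Mmp2, Mmp3, Mmp14 and Mmp23 were higher in the hypertensive-LVH group, and Mmp15 was lower by a smaller step. A gene was called when limma, fitted on log2(FPKM + 1) over 14026 tested genes, gave an adjusted p under 0.05 and an absolute log2 fold change above 0.5. By this rule 5 of the 10 members were called, against 5.92% of all tested genes. All 5 were higher and 0 members were lower, against 4.52% and 1.4% of all tested genes. The calls comprised 1 of 4 TIMP genes and 4 of 6 MMP genes. By adjusted p alone, 6 members were higher and 1 was lower, against 20.9% and 12.6% of all tested genes. The median log2 fold change of all tested genes was 0.05. Of the 831 genes called, 634 were higher, a split that was 540 of 817 with median-ratio scaling and 458 of 733 with quantile normalization, and the 5 member calls were also made with both. In a bulk sample, a lower number of cells of a type and less RNA per cell cannot be told apart.

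The size of the difference between the groups, on the adjusted scale, differed between the sets. A larger response to ANG II and an effect of the adjustment cannot be told apart here. The group-by-set interaction passed the adjusted p of limma for 7 of the 10 members, all except Timp3, Mmp9 and Mmp15, against 7.49% of all tested genes. In samples 4 to 6 alone 8 members were called, against 19.2% of all tested genes, with 7 higher and Timp4 lower, against 16.3% and 2.94%. In samples 7 to 9 alone 1 member, Timp1, was called higher, against 2.05% of all genes called higher and 3.82% called in either direction. The 3 control Timp1 values of that set were negative and were set to 0 for this fit. In samples 1 to 3 and in samples 10 to 12 alone limma called 0 members, against 0% and 0.15% of all genes called, while 4 and 3 members had an unadjusted p under 0.05, as 8.77% and 12.9% of all genes did. Without samples 4 to 6 of both groups, 2 members were called, Timp1 and Mmp14, both higher, against 3.94% of all tested genes in either direction and 2.3% called higher. The groups did not overlap for 5, 8, 2 and 3 members in the 4 sets in order, against 16.8%, 47.6%, 27% and 21% of all tested genes. Without the 2 samples with high Myl7, all 5 members stayed called. With the replicate number as a block, 3 members were called, without Mmp2 (limma adjusted p = 0.0979) and Mmp23 (limma adjusted p = 0.0623). These p-values do not account for the adjustment of the deposited values, which was made within sets that hold both groups.

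**Figure D1:**
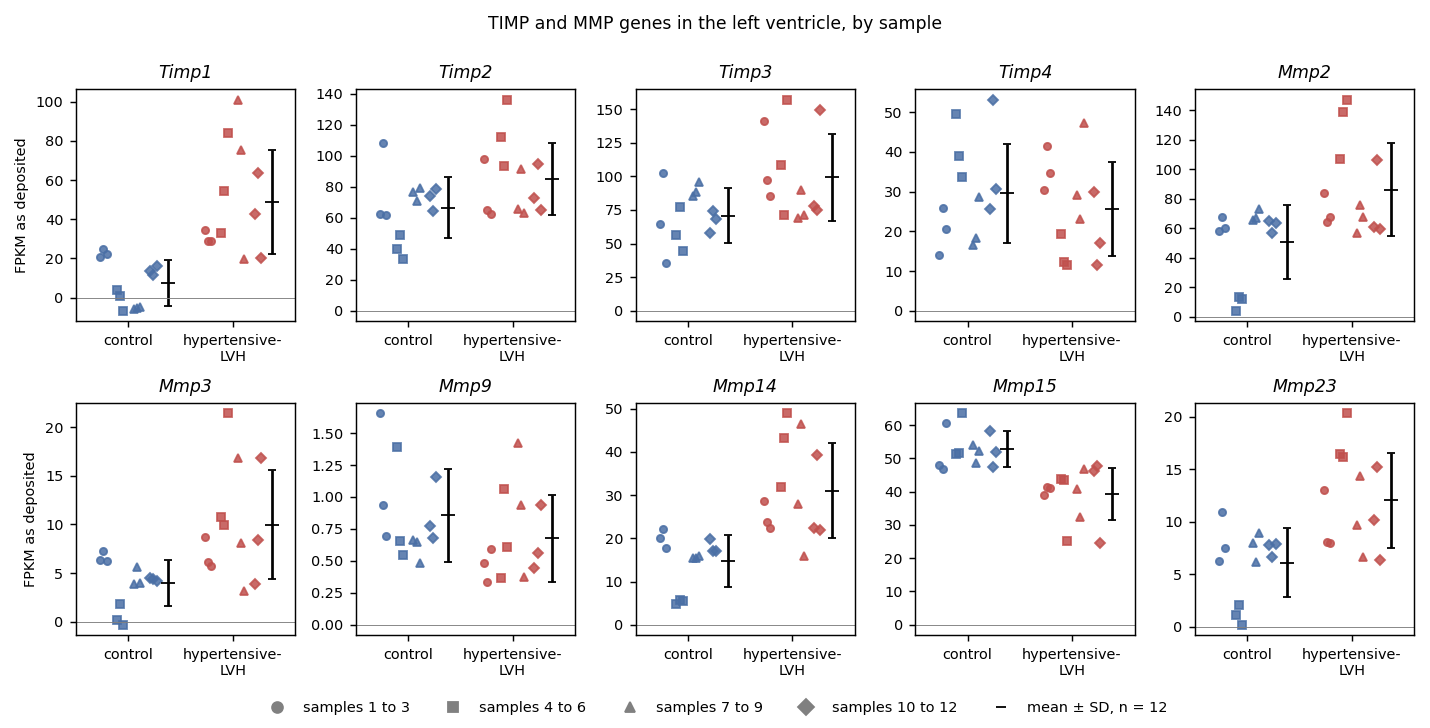
Each point is the deposited FPKM of 1 mouse for 1 of the 10 genes, with the control group in blue and the hypertensive-LVH group in red. Marker shapes give the 4 sets of samples, and bars give the mean ± SD of 12 mice. The control squares (samples 4 to 6) lie lowest for Mmp2, Mmp14 and Mmp23, while Mmp15 is lower in all 4 hypertensive-LVH sets.

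Timp1, the inducible inhibitor of the family, had the largest log2 fold change of the 10 genes. Its level in the hypertensive-LVH group was 19.6 FPKM at the lowest, 38.5 at the median and 101 at the highest, against -6.74, 7.62 and 24.8 FPKM in the control group. All 12 hypertensive-LVH samples were above the control median and 10 were above the highest control sample. The overlap was of hypertensive-LVH samples 9 and 12 with control samples 1 to 3, which belong to another set. Counts of this kind, here and for the other members, pool sets whose levels cannot be compared. They are given as a description only. The mean was 48.8 ± 26.7 FPKM (SD, n = 12) against 7.56 ± 11.9 FPKM (SD, n = 12). The log2 fold change was 3.09 ± 0.59 (SE, limma adjusted p = 3.48e-04). The value was negative in 4 control samples and was set to 0 for the logarithm, so the fold depends on the constant that was added and is not read as a fold of transcripts.

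The Timp1 difference had the same direction in each set. The mean of the 3 hypertensive-LVH samples exceeded that of the 3 control samples by 8.24 FPKM in samples 1 to 3, by 57.8 in samples 4 to 6, by 70.4 in samples 7 to 9 and by 28.5 in samples 10 to 12. In samples 4 to 6 and 7 to 9 the control means were negative, at -0.783 and -5.15 FPKM. The differences there thus exceeded the hypertensive-LVH means of 57.1 and 65.2 FPKM. All 3 control values of samples 7 to 9 were negative and were set to 0 for limma, which left them no spread. In all 4 sets the groups did not overlap, which held, with the hypertensive-LVH samples above, for 0.677% of all tested genes. The interaction with the set had a limma adjusted p of 1.61e-04. Without samples 4 to 6 the log2 fold change was 2.54 (limma adjusted p = 0.0132), and without the 2 samples with high Myl7 it was 3.22 (limma adjusted p = 3.07e-04). The summed level of macrophage markers was also higher in its median. It was 130 to 349 FPKM (median 205) in the hypertensive-LVH group and 92.7 to 183 FPKM (median 135) in the control group. Of these markers, 3 of 6 (Cd68, C1qa and Cd163) were called higher, against 4.52% of all tested genes. In the fit without samples 4 to 6, Cd163 was called and Cd68 (limma adjusted p = 0.0543) and C1qa (limma adjusted p = 0.125) were not. That fit called 2.3% of all tested genes higher. The part of these cells in the Timp1 result was not tested.

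Timp2 and Timp3 were abundant in both groups and did not pass both thresholds. Timp2, which inhibits MMP2 and takes part in its activation, ranged from 62.5 to 136 FPKM with a median of 82.0 in mice given ANG II, and from 33.5 to 108 FPKM with a median of 67.8 in the control group. The groups overlapped widely, with 7 of 12 hypertensive-LVH samples above the control median. On the log2 scale the change was 0.36 ± 0.16 (SE, limma adjusted p = 0.0785). The difference in means was 73.0 FPKM in samples 4 to 6 and between -2.23 and 5.10 FPKM in the other sets, and without samples 4 to 6 the log2 fold change was 0.00 (limma adjusted p = 0.998). The interaction with the set had a limma adjusted p of 0.00734.

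Timp3, which binds to the matrix and also inhibits enzymes that shed cell surface proteins, had the highest mean of the 10 genes in both groups. It ranged from 69.3 to 157 FPKM (median 87.6) in mice given ANG II, and from 35.2 to 102 FPKM (median 71.4) in control mice. A total of 9 of 12 hypertensive-LVH samples were above the control median and 4 were above the highest control sample. The log2 fold change of 0.48 ± 0.17 (SE, limma adjusted p = 0.0310) passed the adjusted p but not the fold threshold. The difference in means was between 34.0 and 53.1 FPKM in 3 sets and -13.3 FPKM in samples 7 to 9. When samples 7 to 9 were left out it was called, against 5.65% of all tested genes, with a log2 fold change of 0.72 (limma adjusted p = 0.0123), and without samples 4 to 6 it was not, at 0.35 (limma adjusted p = 0.198). It was also called when any of hypertensive-LVH samples 5, 7, 9, 10 and 11 or of control samples 2, 7, 8 and 9 was left out, with a log2 fold change of at most 0.53.

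Timp4, the family member with its best known expression in the heart, was not called. It ranged from 11.5 to 47.3 FPKM (median 26.1) in mice given ANG II, and from 14.1 to 53.1 FPKM (median 27.3) in control mice. The samples of both groups were mixed over this range, and the log2 fold change was -0.23 ± 0.24 (SE, limma adjusted p = 0.469). The sign of the hypertensive-LVH minus control difference was not the same in each set, with 15.3 and 12.0 FPKM in samples 1 to 3 and 7 to 9, and -26.2 and -17.0 FPKM in samples 4 to 6 and 10 to 12. The interaction with the set had a limma adjusted p of 0.00734. With samples 4 to 6 left out, the log2 fold change was 0.17 (limma adjusted p = 0.668).

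The make-up of the inhibitor transcripts differed with Timp1. As a share of the summed FPKM of the 4 TIMP genes, with negative values at 0, Timp1 made up 8.05% to 38.1% (mean 18.5% ± 8.96, SD, n = 12) in mice given ANG II and 0% to 15.9% (mean 5.23% ± 5.59, SD, n = 12) in the control group. The mean shares of Timp2 were 32.7% and 37.4%, those of Timp3 38.2% and 39.8%, and those of Timp4 10.6% and 17.6%, in the same order of groups. By set, the mean Timp1 share in the hypertensive-LVH group was 12.5%, 19.0%, 24.9% and 17.7%, against 12.7%, 0.964%, 0% and 7.26% in the control group, so it was not higher in samples 1 to 3. The summed TIMP level was 259 ± 50.6 FPKM (SD, n = 12) against 176 ± 37.7 FPKM, and the summed level of the 6 MMP genes was 179 ± 45.9 against 129 ± 34.6 FPKM. By set, the mean summed MMP level was 154 against 150, 242 against 73.3, 157 against 148 and 164 against 145 FPKM, so the gap was widest in samples 4 to 6. The ratio of summed MMP to summed TIMP levels was 0.698 ± 0.158 in the hypertensive-LVH group and 0.740 ± 0.190 in the control group. Between the set means, the hypertensive-LVH ratio was the higher in samples 4 to 6 (0.847 against 0.537) and the lower in the other sets (0.626 against 0.854, 0.637 against 0.796 and 0.682 against 0.773). These shares and sums are given as a description, with no test.

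**Figure D2:**
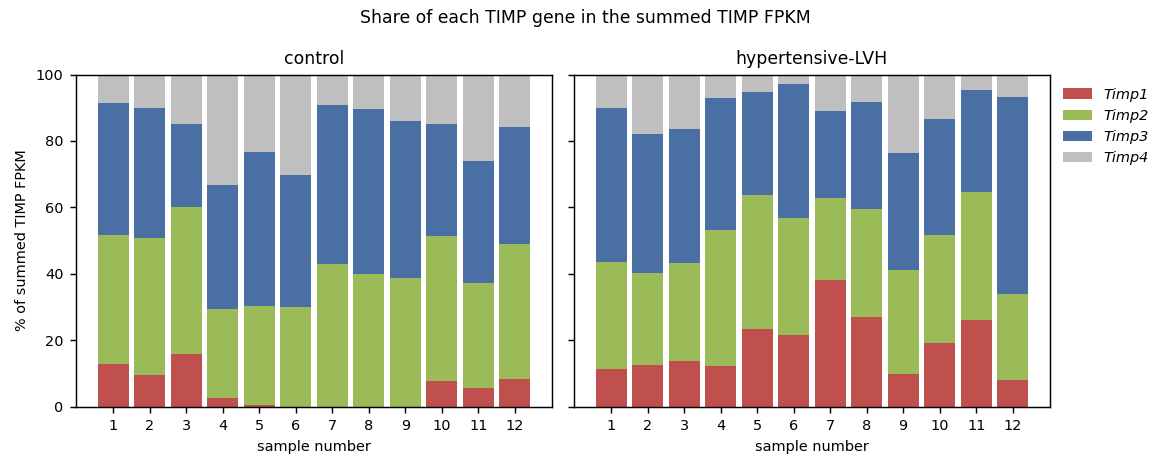
Stacked bars give the share, in percent, of each of the 4 TIMP genes in their summed FPKM for each of the 12 samples of a group, with negative values counted as 0. The Timp1 share (red) reaches 38.1% in a hypertensive-LVH sample and at most 15.9% in a control sample.

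Among the secreted proteases, Mmp2 and Mmp3 were called higher and Mmp9 was not. Mmp2, gelatinase A, ranged from 56.6 to 147 FPKM (median 71.6) in mice given ANG II, and from 3.93 to 72.7 FPKM (median 61.9) in control mice. Above the control median were 9 of 12 hypertensive-LVH samples, and 6 were above the highest control sample. Its log2 fold change was 1.03 ± 0.37 (SE, limma adjusted p = 0.0343).

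The Mmp2 call rested on samples 4 to 6. In that set the 3 control samples were at 3.93, 13.6 and 12.2 FPKM and the 3 hypertensive-LVH samples at 107, 139 and 147 FPKM. The difference in means was 121 FPKM there, and 10.1, -1.82 and 13.6 FPKM in samples 1 to 3, 7 to 9 and 10 to 12, where the groups overlapped. The interaction with the set had a limma adjusted p of 5.00e-06. With samples 4 to 6 left out, Mmp2 had a log2 fold change of 0.13 (limma adjusted p = 0.351). The call was also lost when any of hypertensive-LVH samples 4, 5, 6 and 11 or of control samples 5 and 6 was left out (log2 fold changes of 0.88 to 1.00), and in the Wilcoxon rank-sum test of all samples (adjusted p = 0.0620).

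Mmp3, stromelysin-1, which cuts proteoglycans and activates other MMP precursors, was present at a lower level. It ranged from 3.14 to 21.4 FPKM (median 8.57) in mice given ANG II, and from -0.315 to 7.26 FPKM (median 4.28) in control mice. In all, 10 of 12 hypertensive-LVH samples were above the control median and 8 were above the highest control sample. On the log2 scale it was higher by 1.19 ± 0.34 (SE, limma adjusted p = 0.00868). The negative control value was set to 0, and the fold depends on the constant that was added. With 0.1 added in place of 1 it was 1.70 (limma adjusted p = 0.0245). The difference in means was positive in each set, at 0.254, 13.5, 4.86 and 5.35 FPKM, but the groups were apart only in samples 4 to 6. The interaction had a limma adjusted p of 0.0147, and without samples 4 to 6 the log2 fold change was 0.51 (limma adjusted p = 0.138).

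Mmp9, gelatinase B, which is stored in neutrophils, was the least abundant member. It ranged from 0.332 to 1.42 FPKM (median 0.576) in mice given ANG II, and from 0.480 to 1.65 FPKM (median 0.688) in control mice, and the groups overlapped. Its log2 fold change was -0.15 ± 0.10 (SE, limma adjusted p = 0.271). Its mean was lower in 3 sets and higher in samples 7 to 9, and the interaction had a limma adjusted p of 0.352. Of the 5 neutrophil markers tested 0 were called, against 5.92% of all tested genes. Of these, only Csf3r passed the adjusted p, with a log2 fold change of 0.496 (limma adjusted p = 0.0161), under the fold threshold. The summed level of 6 neutrophil markers, with the untested Ly6g, was 2.34 to 25.3 FPKM (median 13.2) in the hypertensive-LVH group. In the control group it was 4.86 to 46.1 FPKM (median 8.11).

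Of the membrane-bound proteases, Mmp14 and Mmp23 were called higher and Mmp15 was lower by less than the fold threshold. Mmp14, the membrane-type enzyme that cuts fibrillar collagen and activates the MMP2 precursor, ranged from 15.9 to 48.9 FPKM (median 28.3) in mice given ANG II, and from 4.83 to 22.2 FPKM (median 16.4) in control mice. All but 1 of 12 hypertensive-LVH samples were above the control median and 10 were above the highest control sample. The log2 fold change was 1.09 ± 0.24 (SE, limma adjusted p = 0.00121). The difference in means was 4.85, 35.9, 14.5 and 9.86 FPKM in the 4 sets, and in 3 of them the hypertensive-LVH samples lay wholly above the control samples, which 3.19% of all tested genes did in at least 3 sets. The interaction had a limma adjusted p of 8.50e-04. Without samples 4 to 6 Mmp14 was still called, with a log2 fold change of 0.54 (limma adjusted p = 0.0144).

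Mmp15, a related membrane-type enzyme, was the member whose log2 fold change varied least between the sets. It ranged from 24.5 to 47.6 FPKM (median 41.2) in mice given ANG II, and from 46.8 to 63.5 FPKM (median 51.7) in control mice. All 12 hypertensive-LVH samples were below the control median and 11 were below the lowest control sample. The log2 fold change was -0.44 ± 0.10 (SE, limma adjusted p = 0.00118), which passed the adjusted p and not the fold threshold. The difference in means was negative in each set, at -11.4, -17.9, -11.8 and -13.1 FPKM, and in 3 sets the samples lay wholly below the controls, against 4.02% of all tested genes in at least 3 sets. The interaction had a limma adjusted p of 0.900, and without samples 4 to 6 the log2 fold change was -0.39 (limma adjusted p = 0.0100). Ventricular cardiomyocyte markers moved in the same direction, with 2 of 6 called lower (Myl2, log2 fold change -0.50, and Tnni3, -0.63) and all 6 lower in their mean. Of all tested genes, 1.4% were called lower. Without samples 4 to 6, 1 of 6 was called, Tnni3 (-0.58, limma adjusted p = 0.00110), against 1.64% of all tested genes called lower. Myl2 was then at -0.43 and Myh6 at -0.07 (limma adjusted p = 0.671). The part of these cells in the Mmp15 result was not tested.

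Mmp23, a protease held in the membrane by its amino end and released by cleavage, ranged from 6.34 to 20.3 FPKM (median 11.6) in mice given ANG II, and from 0.213 to 10.9 FPKM (median 7.09) in control mice. In all, 10 of 12 hypertensive-LVH samples were above the control median and 6 were above the highest control sample. Its log2 fold change was 1.04 ± 0.31 (SE, limma adjusted p = 0.0126), and 1.31 (limma adjusted p = 0.0245) with 0.1 added in place of 1. As with Mmp2, the groups were apart in samples 4 to 6, where the means differed by 16.5 FPKM, and overlapped in the other sets, where they differed by 1.45 to 3.14 FPKM. The interaction had a limma adjusted p of 3.03e-04, and without samples 4 to 6 the log2 fold change was 0.31 (limma adjusted p = 0.155).

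Over the 10 members, 5 had means that differed in the same direction in all 4 sets, against 34.6% of all tested genes. Of these, 4 were higher (Timp1, Mmp3, Mmp14 and Mmp23), against 21.9%, and Mmp15 was lower, against 12.7%. Over all samples, with the sets pooled, 0 members had groups without any overlap. The share of all tested genes was not computed for this, so the count is not read as a result about the members.

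**Figure D3:**
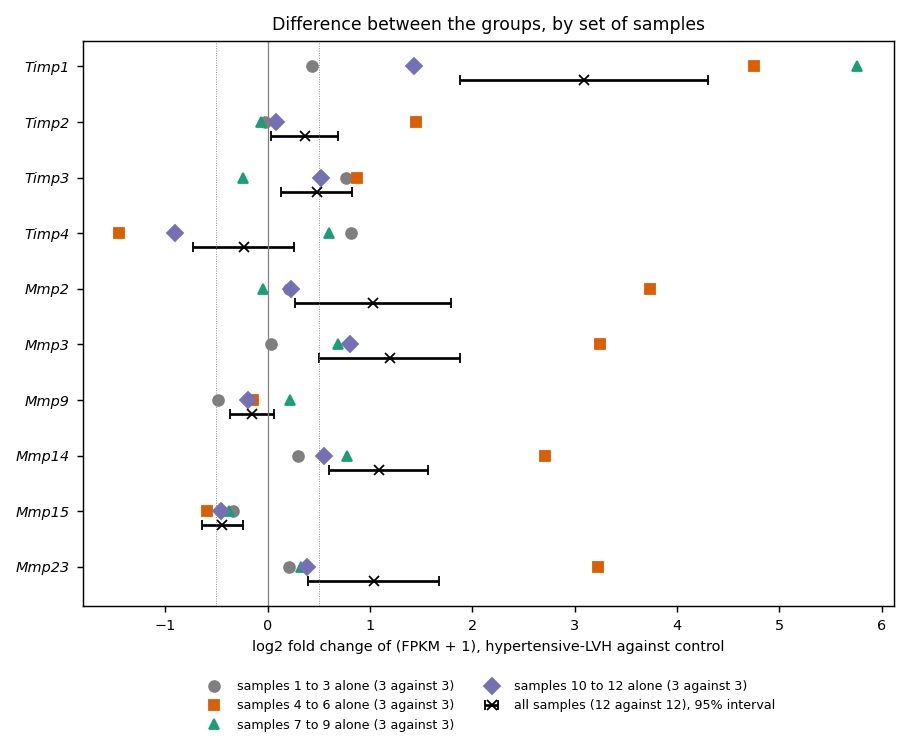
The horizontal axis is the log2 fold change of FPKM + 1 between the hypertensive-LVH and control groups for each gene. Coloured markers give each set alone (3 against 3 samples), and crosses with bars give all samples with the 95% interval of limma. Dotted lines mark the fold threshold of 0.5 in both directions. For Mmp2, Mmp3, Mmp14 and Mmp23 the orange square (samples 4 to 6) lies far to the right of the other sets, and the Mmp15 markers lie close together below 0.

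Timp3 had the highest mean level and Mmp23, Mmp3 and Mmp9 the lowest in both groups, and the order between them differed. In the hypertensive-LVH group the means ran from Timp3 through Mmp2, Timp2, Timp1, Mmp15, Mmp14, Timp4, Mmp23 and Mmp3 to Mmp9. In the control group they ran from Timp3 through Timp2, Mmp15, Mmp2, Timp4, Mmp14, Timp1, Mmp23 and Mmp3 to Mmp9. Timp1 was thus the fourth in the former order and the seventh in the latter. In samples 1 to 3, however, it was the sixth in the hypertensive-LVH group (30.8 FPKM) and the fifth in the control group (22.5 FPKM). Neighbours in these orders often did not differ beyond their spread. In the hypertensive-LVH group Mmp2 was above Timp2 in 5 of 12 samples, Timp1 above Mmp15 in 5 of 12 and Mmp14 above Timp4 in 6 of 12. In the control group Mmp15 was above Mmp2 in 4 of 12 samples, Timp3 above Timp2 in 8 of 12 and Timp1 above Mmp23 in 7 of 12. By contrast Mmp3 exceeded Mmp9 in 12 of 12 hypertensive-LVH samples and in 10 of 12 control samples.

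The 3 genes of the MMP2 activation complex, and Timp1 with Mmp14, were compared across mice after the mean of each group in each set was removed. The 4 pairs were examined in 24 samples, with 100000 two-sided permutations within these cells and p-values adjusted over the 4 pairs. Mmp2 and Mmp14 were correlated (r = 0.475, permutation p = 0.00846, adjusted p = 0.0169). Their rank correlation was 0.773 (permutation p = 0.00197, adjusted p = 0.00788). With the 2 samples left out that lay farthest from the median of Mmp2, after the same removal of means, r was 0.610. Within sets r was 0.813, 0.577, 0.335 and 0.974 (6 samples each). Mmp14 and Timp2 had r = 0.593 (permutation p = 0.00568, adjusted p = 0.0169) and a rank correlation of 0.562 (permutation p = 0.0206, adjusted p = 0.0411), with r of 0.576 without the 2 farthest samples and of 0.894, 0.241, 0.871 and 0.853 within sets.

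The other pairs did not pass with the set-by-group means removed. Mmp2 and Timp2 had r = 0.400 (permutation p = 0.0934, adjusted p = 0.105) and a rank correlation of 0.461 (permutation p = 0.0553, adjusted p = 0.0737). Without the 2 farthest samples r was 0.485, and within sets it was 0.898, 0.125, 0.707 and 0.932. Timp1 and Mmp14 had r = 0.587 (permutation p = 0.105, adjusted p = 0.105) and a rank correlation of 0.473 (permutation p = 0.0823, adjusted p = 0.0823), with r of 0.572 without the 2 farthest samples and of 0.778, 0.215, 0.782 and 0.734 within sets. For this pair r was 0.807 in the hypertensive-LVH group and -0.38 in the control group, where 4 Timp1 values are set to 0. The difference between these values was not tested. When only the group means were removed, so that shared differences between sets were kept, all 4 pairs passed, with r = 0.806 for Mmp2 and Timp2 (permutation adjusted p = 2e-05) and r = 0.555 for Timp1 and Mmp14 (permutation adjusted p = 0.0138). With a pseudocount of 0.1 and the set-by-group means removed, r for Timp1 and Mmp14 was 0.341 (permutation adjusted p = 0.187).

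**Figure D4:**
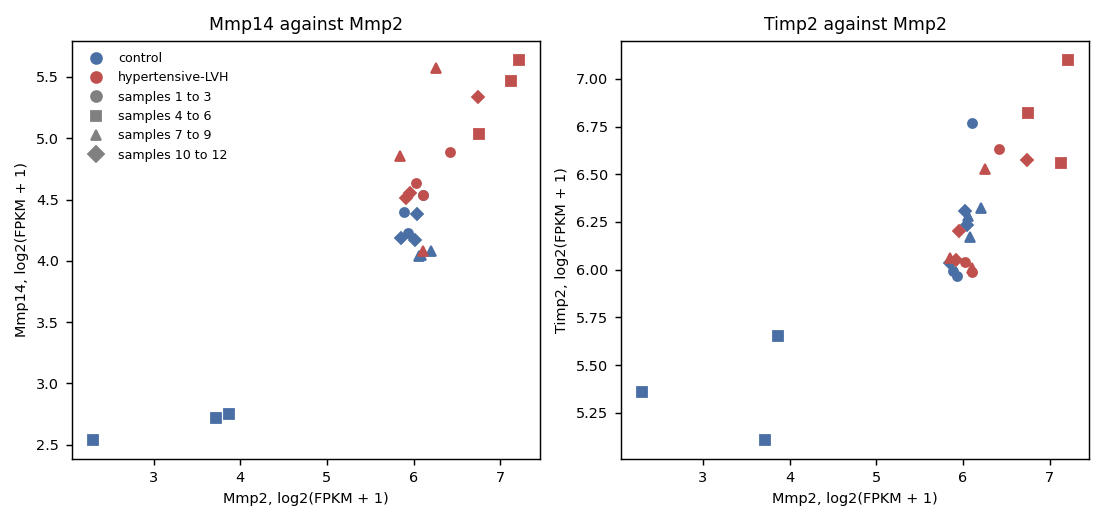
Both panels show log2(FPKM + 1) of 24 samples, with Mmp2 on the horizontal axis and Mmp14 (left) or Timp2 (right) on the vertical axis. Colours give the groups and shapes the sets. The 3 control squares of samples 4 to 6 lie apart at low levels of all 3 genes, and the group means of each set are still included in these values.

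The genes most like each called member, by Pearson r of log2(FPKM + 1) over the 24 samples, are given as a description. The r after removal of the group means follows in parentheses. For Timp1 they were Lox, which encodes the collagen cross-linking enzyme lysyl oxidase (r 0.928, 0.844 without group means), Ctss, which encodes the protease cathepsin S (0.925, 0.849), and Ms4a6d (0.924, 0.841). For Mmp2 they were Ssc5d (0.977, 0.973), Fndc1 (0.973, 0.966) and the fibrillar collagen gene Col5a1 (0.973, 0.967). For Mmp3 they were Lbp, which encodes the lipopolysaccharide binding protein (0.949, 0.922), the lubricin gene Prg4 (0.941, 0.924) and the cytokine receptor gene Csf2rb2 (0.937, 0.904). For Mmp14 they included Dok1 (0.986, 0.979) and Bmp1, which encodes a procollagen-cutting protease (0.983, 0.973). For Mmp23 they were the collagen-binding receptor gene Antxr1 (0.982, 0.976), the microfibril gene Mfap2 (0.981, 0.973) and the collagen gene Col14a1 (0.981, 0.972). These samples share the adjustment of the sets, and after the set-by-group means were removed r fell to 0.544 for Lox with Timp1 and to 0.758 for Col5a1 with Mmp2, and was 0.926 for Dok1 with Mmp14.

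The rest of the system was examined in 4 lists, each described by counts and by its median beside the median of all tested genes (0.05). Of all tested genes, 4.52% were called higher and 1.4% lower. Without samples 4 to 6 these shares were 2.3% and 1.64%. Of 17 other metalloproteinases, 11 were in the table and 2 were called higher, Mmp19 (log2 fold change 0.65, limma adjusted p = 0.00269) and the macrophage elastase Mmp12 (0.50, limma adjusted p = 0.0494). The median of this list was 0.12, and without samples 4 to 6 it was 0.02 with 0 genes called, although the log2 fold change of Mmp12 was then 0.57 (limma adjusted p = 0.110). Mmp12 was at 1.37 ± 0.996 FPKM (SD, n = 12) against 0.570 ± 0.384 FPKM, so that it was a gene of low level like Mmp9.

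Of 23 tested genes for activators, clearance receptors and further inhibitors, 8 were called higher and 0 lower, against 4.52% and 1.4% of all tested genes. The median was 0.32. Among them were Cd44, a hyaluronan receptor that can hold MMPs at the cell surface (log2 fold change 0.91, limma adjusted p = 1.12e-04), and Pcolce, which enhances procollagen processing (0.71, limma adjusted p = 0.00393). Without samples 4 to 6, 3 were called higher, Plaur and Cd44 among them, against 2.3% of all tested genes, and the median was 0.20.

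Matrix substrates had the highest median of the 4 lists, at 0.89. Of 26 genes, 17 were called higher and 0 lower, against 4.52% and 1.4% of all tested genes. The fibrillar collagen genes Col1a1 (2.77, limma adjusted p = 0.0180), Col3a1 (2.63, limma adjusted p = 0.0418) and Col1a2 (2.49, limma adjusted p = 0.0296) led the list by log2 fold change. As for Mmp2, much of this rested on samples 4 to 6. Without them 5 were called higher (Col1a1, Eln, Tnc, Bgn and Sparc), against 2.3% of all tested genes, and the median was 0.33. Of 25 tested inducers of TIMP and MMP genes, 2 were called higher, the growth factor genes Tgfb3 (0.95, limma adjusted p = 0.00129) and Tgfb2 (0.66, limma adjusted p = 3.30e-04), and the median was 0.12. This share of 8% is near the 5.92% of all tested genes called. In the fit of the remaining samples together, without samples 4 to 6, both were called, and the transcription factor gene Egr1 was called lower.

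Markers of other cell types were examined beside the members. Of all tested genes, 4.52% were called higher and 1.4% lower, and without samples 4 to 6 these shares were 2.3% and 1.64%. Of 6 fibroblast markers, 2 (Lum and Col15a1) were called higher, and none of the 6 was called higher without samples 4 to 6, when Gsn was called lower. Over all samples the log2 fold change of Gsn was -0.49 (limma adjusted p = 3.02e-04). The summed level of the 6 markers was 505 to 1065 FPKM (median 646) in the hypertensive-LVH group and 583 to 907 FPKM (median 827) in the control group. This sum was mostly Gsn, with a mean of 458 FPKM against 639 FPKM in the control group. The log2 fold change was above 0 for the other 5 markers, and the median of the 6 was 0.29. The lower median of the sum is thus not read as a fall of fibroblast markers. Of 6 smooth muscle and pericyte markers, 2 (Tagln and Cnn1) were called higher, with 0 without samples 4 to 6. Of 6 endothelial and of 5 epicardial markers, 0 were called. The part of these cells in the member results was not tested.

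**Figure D5:**
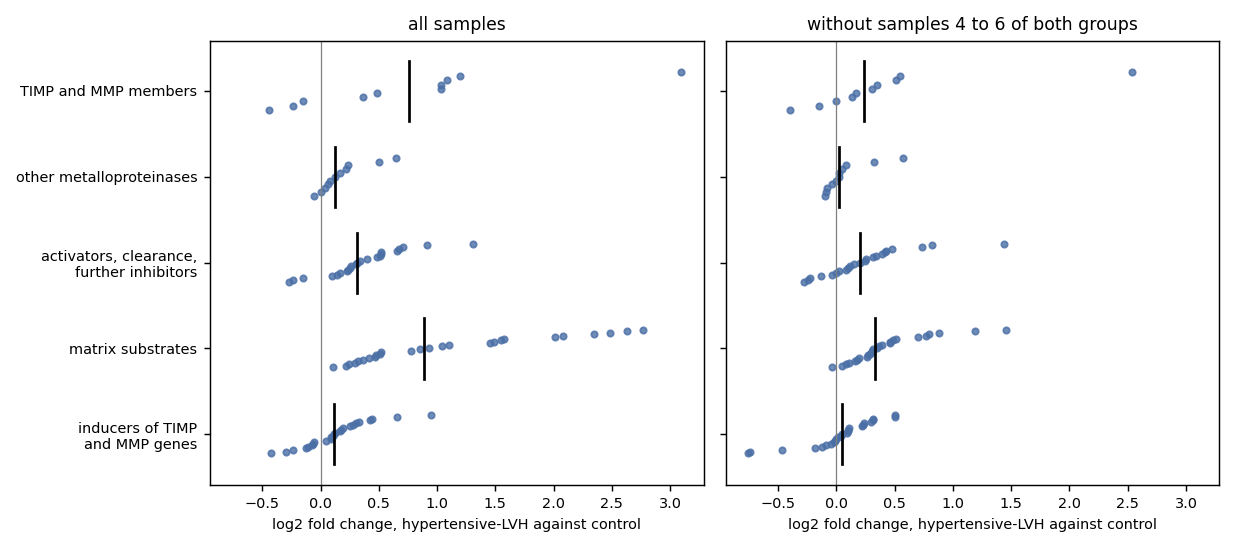
Points are the log2 fold changes of single genes and vertical lines the medians, for the 10 members and 4 lists of related genes, with all samples (left) and without samples 4 to 6 of both groups (right). Matrix substrates have a median of 0.89 on the left and 0.33 on the right, while Timp1, the rightmost member, stays above 2 in both panels.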

How the data were processed

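Poly(A)-selected RNA of left ventricles was sequenced by the authors, whose processing notes name Bowtie2, HISAT and RSEM. The authors deposited 1 FPKM value per gene and sample. Because ties, negative values and nearly equal set means show an adjustment within sets of samples, a step the methods do not name and whose form was not tested, the deposited values were treated as a score on the FPKM scale. Genome build and counting by strand are not given in the sources used here. Symbols were matched to GENCODE vM21 (14881 of 14912).

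Negative values were set to 0 for log2(FPKM + 1). The 14026 genes whose mean reached 0.1 were fitted with R 4.3.3 and limma 3.58.1 (intensity trend, two-sided, Benjamini-Hochberg adjustment), and other steps used Python 3.11.15. Sets were joined at 100 or more tied genes. Checks on simulated data were run. Tested were the 10 members, and named besides were the 3 called genes of each list with the largest change, the 3 genes most like each called member, and markers. Genes called without samples 4 to 6 (Plaur, Egr1, Eln, Tnc, Bgn and Sparc) were named after their values were seen. Some genes that this rule would name are not reported here. The members and lists were chosen with earlier results of these data known. The depth is unknown, and the 12 samples per group limit the precision. Columns of per-sample values not used were 0.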

Additional observations from a re-analysis of the deposited data

How the results depend on the processing

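The 5 member calls (of 831 genes called) were recomputed under other settings. With the replicate number as a block 3 members were called, Timp1 (limma adjusted p = 0.00500), Mmp3 (0.0433) and Mmp14 (0.0140), and 715 genes in all. Deviations of samples with the same number had correlations of -0.557 to -0.001 (median -0.219), but nearly equal set means push these below 0, so whether the numbers pair the mice cannot be told, and the labels do not say so. Without samples 4 to 6 of both groups 2 members and 552 genes were called. Leaving out 1 mouse at a time gave 4 to 6 members and 715 to 979 genes, with Mmp2 lost in 6 of 24 fits and Timp3 gained in 9 of 24. Chosen after seeing the data, each set alone (3 against 3 samples, in the order of the sets) gave 0, 8, 1 and 0 members and 0, 2696, 536 and 21 genes, and in samples 1 to 3, where the count was 0, 1230 genes had an unadjusted p under 0.05 in limma. A pseudocount of 0.1 gave 1489 genes, adjusted p alone 4697, and FPKM without a logarithm by adjusted p alone 4616. Also chosen after seeing the data, leaving out the 2 samples with high Myl7 gave 5 members and 846 genes. The log2 fold change reversed for Timp2 in samples 1 to 3 (-0.022) and 7 to 9 (-0.060), for Timp3 in samples 7 to 9 (-0.24), for Timp4 without samples 4 to 6 (0.17) and in the sets of samples 1 to 3 (0.81) and 7 to 9 (0.60), and also in samples 7 to 9 for Mmp2 (-0.047) and Mmp9 (0.22). The cause was not tested. Quantile normalization moved the median of all genes from 0.05 to -0.02. Because set means were made nearly equal, absolute levels between sets are not known, and low values such as those of Mmp9 have an unknown counting error.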
